A study of Mus musculus with 7 samples.

Results

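The genes described here are 40 genes of DNA replication and nucleotide synthesis, chosen by symbol from the 23284 genes counted in atrioventricular canals of Hand2 null and wild-type mouse embryos. All 40 had a row in the count files and all 40 passed the filter on low counts. The canal joins the atrium and ventricle of the looping heart and is the site of the first valve cushions. Both groups were outbred NMRI embryos of 18 to 23 somites, labelled just after embryonic day 9.0 (day 9.5 in the sample titles). The 4 null libraries carry Hand2 d/d, a germline deletion of the whole coding part of the gene, and the 3 wild-type libraries carry no mutant allele by their labels. Each library is a pool of 4 hand-dissected canals, with somite stages and sex ratio matched between genotypes by the labels. The deletion is not limited to the heart or to any cell type, and 1 further wild-type pool was left out by the submitters for RNA quality.

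Before S phase, the origin recognition complex with CDC6 and CDT1 loads the ring of MCM2 to MCM7 onto origins, and CDC45 with the GINS complex turns that ring into the active helicase. Primase and the polymerases copy the strands, replication factor C loads the sliding clamp PCNA, and FEN1 and LIG1 join the lagging strand. Ribonucleotide reductase, thymidylate synthase, thymidine kinase and dUTPase supply and clean the nucleotides. Many of these genes are transcribed at the G1/S boundary by E2F factors. In the heart tube at this stage the chambers proliferate fast, and the myocardium of the canal is known to divide slowly.

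Each library had 27905601 to 44860753 reads in genes, and the 40 genes together took 0.280% to 0.429% of them. Hand2 was counted 7, 26, 10 and 14 times in null libraries 1 to 4 and 2123, 1224 and 1194 times in wild-type libraries 2 to 4, so all libraries matched their labels. The canal markers Tbx2, Tbx3, Bmp2, Bmp4, Msx2, Cacna1g, Has2 and Rspo3 were all detected. Their sum was 318 to 401 CPM (each count scaled to the total of gene reads in its library) in the null and 288 to 536 CPM in wild type. Null library 2 had the most reads in no gene (14.21%) and wild-type library 4 the highest sum of red blood cell markers. Because the tissue is bulk, fewer cells of a dividing type and less RNA per cell cannot be told apart. Pools of embryos are the replicates, so p-values measure the spread between pools. PCR copies cannot be told from separate molecules, so floors cover counting error alone.

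In the null canal 5 of these genes were lower and none was higher. They were Tk1, Tyms, Pcna, Rfc3 and Gins1, whose fitted null levels were 51.2% to 67.4% of wild type. The lowered genes came from nucleotide supply, the clamp and its loader, and the GINS complex. None of the 6 subunits of the MCM ring was called, and the difference between the called genes and the ring was not tested. Calls rest on the quasi-likelihood test of edgeR over 14290 genes, at 0.05 after Benjamini-Hochberg adjustment. The 5 lower calls were 12.5% of the 40 genes, against 2.13% of all genes tested, and 4.11% of all genes were called higher. At an unadjusted p under 0.05, 17 of the 40 were lower (42.5%, against 10.9% of all genes) and 0 were higher (against 13.5%). In DESeq2, 14 were called lower (against 5.91% of genes) and 0 higher (against 7.39%). The null libraries lay below every wild-type library for 15 of the 40 (37.5%, against 10.3% of all genes), and above every wild-type library for 0 (against 11.6%). The median log2 fold change, null minus wild type, was -0.24 over the 40 genes and 0.02 over all genes tested. A negative value was found for 34 of the 40 (85.0%, against 47.7% of all genes).

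The count depended on single libraries. It was 3, 4, 8 and 7 of the 40 without null library 1, 2, 3 or 4, where 0.64%, 1.07%, 4.58% and 2.05% of all genes were called lower. Without wild-type library 2, 3 or 4 it was 1, 1 and 7, against 0.318%, 0.463% and 1.89% of all genes, and the 1 was Tk1 both times. Each of these fits has 1 replicate fewer. Without null library 2 and wild-type library 4 together it was 2, Pcna and Tk1, against 0.849% of all genes.

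**Figure D1:**
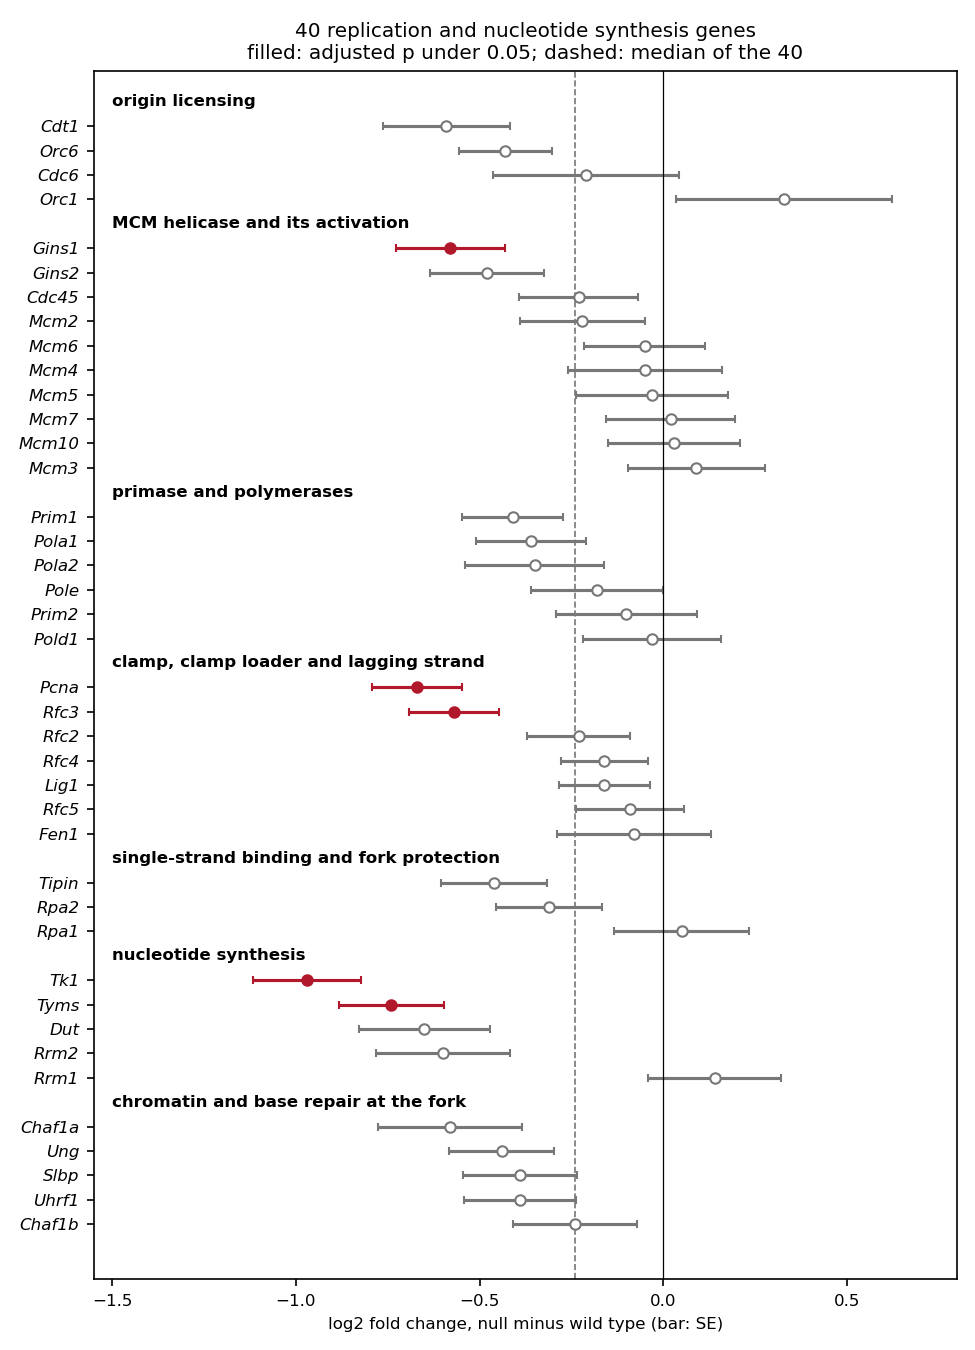
Log2 fold change, null minus wild type, of each of the 40 genes (x axis; bars are standard errors of the edgeR fit), grouped by role on the y axis. The 5 filled points are called genes, all to the left of 0, and the dashed line is the median of the 40 genes at -0.24.

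Of the 7 roles, nucleotide synthesis had the lowest median, at -0.65 over 5 genes. Tk1 encodes the thymidine kinase of the salvage route, whose transcript is known to follow S phase. Its level was 37.8, 33.1, 32.0 and 43.1 CPM in null libraries 1 to 4 and 78.2, 66.9 and 66.4 CPM in wild-type libraries 2 to 4. The groups did not overlap, and the fitted value was -0.97 on the log2 scale (SE 0.148, edgeR adjusted p = 0.00299, 36.5 ± 5.07 against 70.5 ± 6.69 CPM, SD, n = 4 and 3). Tk1 was the only one of the 5 that stayed called with any 1 library left out, with edgeR adjusted p from 0.00149 to 0.0306. Exons of Tk1 overlap those of Afmid on the opposite strand in GENCODE M21, and the libraries carry no strand.

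Tyms encodes thymidylate synthase, which makes dTMP from dUMP. It was counted at 70.1, 79.9, 63.8 and 94.4 CPM in the null and at 127, 129 and 123 CPM in wild type. The wild-type values were close together and all lay above the highest null library. The log2 fold change was -0.74 (SE 0.142, edgeR adjusted p = 0.0110), and the call was lost without wild-type library 2 (0.0641) or 3 (0.0613), at log2 fold changes of -0.74 and -0.71. Without null library 2 and wild-type library 4 together it was -0.76 (0.0615). Tyms has the annotated pseudogene Tyms-ps, and reads aligning to several places are not counted.

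Dut, the dUTPase that keeps uracil out of DNA and yields dUMP, had 106, 77.6, 118 and 106 CPM in the null and 167, 178 and 132 CPM in wild type. Its groups did not overlap, yet it missed the threshold at -0.65 on the log2 scale (SE 0.179, edgeR adjusted p = 0.0523). It passed with RLE scaling (0.0496), with upper-quartile scaling (0.0441), with no filter (0.0467) or a stricter filter on low counts (0.0494), and without null library 3 (0.0243) or wild-type library 4 (0.0447). Without null library 1, 2 or 4, or wild-type library 2 or 3, it did not pass (edgeR adjusted p up to 0.232). Nor did it pass without null library 2 and wild-type library 4 together.

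Ribonucleotide reductase is built from a large subunit, Rrm1, and a small subunit, Rrm2, whose protein is the one known to be degraded after S phase. Neither transcript passed the test. Rrm2 had 327, 402, 233 and 438 CPM in the null and 539, 454 and 575 CPM in wild type, without overlap and with -0.60 on the log2 scale (SE 0.183, edgeR adjusted p = 0.0719). Rrm1 had 185, 250, 150 and 276 CPM in the null and 180, 184 and 213 CPM in wild type, with 0.14 on the log2 scale (SE 0.182, edgeR adjusted p = 0.690). Null library 4 was the highest and null library 3 the lowest of the null libraries for both, and the difference between the subunits was not tested.

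**Figure D2:**
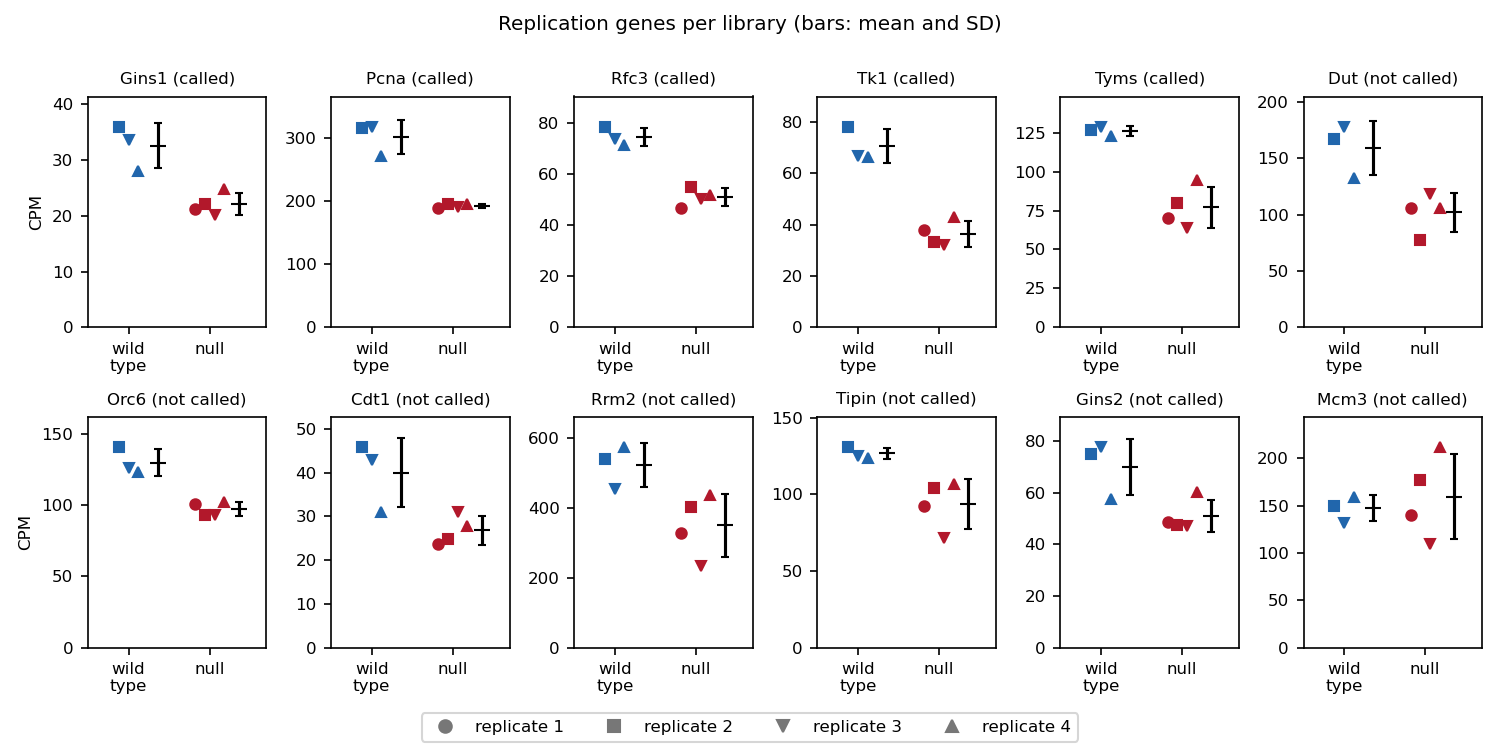
CPM of 12 genes in each library (y axis, starting at 0; marker shape gives the replicate number, blue wild type, red null), with the mean and SD of each group as a black bar. Tk1, Tyms, Pcna, Rfc3 and Gins1 show no overlap between groups, while Mcm3 runs in the null from 109 to 212 CPM, on both sides of wild type.

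At the fork, the clamp gene Pcna had the most even values in the null. It was counted at 189, 195, 190 and 195 CPM there and at 316, 318 and 271 CPM in wild type. The coefficient of variation was 1.77% over the 4 null libraries and 8.78% over the 3 wild-type libraries. The log2 fold change was -0.67 (SE 0.123, edgeR adjusted p = 0.00825), and the call was lost without wild-type library 2 (0.0698) or 3 (0.0624). Pcna has the annotated pseudogenes Pcna-ps1 and Pcna-ps2, and reads that align to several places are not in these counts.

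Replication factor C, the loader of the clamp, showed 1 called subunit out of the 4 listed. Rfc3 had 46.8, 55.0, 50.2 and 52.0 CPM in the null and 78.6, 73.7 and 71.4 CPM in wild type, a fitted -0.57 on the log2 scale (SE 0.122, edgeR adjusted p = 0.0185). Its call was lost without null library 1 (0.0634) or wild-type library 2 (0.124) or 3 (0.0909), and without null library 2 and wild-type library 4 together (0.0679). Values for the other listed subunits were -0.23 for Rfc2, -0.16 for Rfc4 and -0.09 for Rfc5, with SE of 0.140, 0.119 and 0.148. Rfc1, which is not among the 40 genes, had -0.03 (SE 0.133). For Rfc4 the libraries did not overlap, at 131, 135, 115 and 129 CPM in the null and 138, 141 and 144 CPM in wild type, but the gap was small. The flap nuclease Fen1 and the ligase Lig1, which finish lagging-strand fragments, had -0.08 (SE 0.209) and -0.16 (SE 0.125).

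GINS is a complex of small proteins that binds the MCM ring with CDC45. Gins1 had 21.2, 22.1, 20.2 and 24.8 CPM in the null and 36.0, 33.6 and 28.1 CPM in wild type, a fitted -0.58 on the log2 scale (SE 0.148, edgeR adjusted p = 0.0412). This was the weakest of the 5 calls, lost without null library 1 (0.0944) or 2 (0.0954), without wild-type library 2 (0.205) or 3 (0.170), and without null library 2 and wild-type library 4 together (0.0848). Gins2 had 48.8, 47.4, 47.2 and 60.2 CPM in the null and 74.9, 77.8 and 57.6 CPM in wild type. Here null library 4 lay above wild-type library 4, and the log2 difference of -0.48 (SE 0.156, edgeR adjusted p = 0.0860) did not pass. Cdc45 had -0.23 (SE 0.162). Gins3 and Gins4, which are not among the 40 genes, had -0.38 and -0.22 (SE 0.156 and 0.146) and were not called.

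The MCM ring itself was not shown to differ. The log2 fold changes were -0.22 for Mcm2, 0.09 for Mcm3, -0.05 for Mcm4, -0.03 for Mcm5, -0.05 for Mcm6 and 0.02 for Mcm7, with SE of 0.165 to 0.209, and edgeR adjusted p from 0.451 to 0.964. The sign of these small values was not stable, since Mcm3 and Mcm7 turned negative without null library 4 and Mcm4 and Mcm5 positive without null library 3. Mcm10, which joins the helicase at firing, had 0.03 (SE 0.180). Mcm3 is an example of the spread, with 140, 177, 109 and 212 CPM in the null and 150, 132 and 159 CPM in wild type. The null libraries reached both below and above the wild-type range.

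Among licensing genes, the loader Cdt1 and the origin subunit Orc6 lay lower in every null library without passing the test. Orc6 had 101, 93.0, 93.0 and 102 CPM in the null and 141, 126 and 123 CPM in wild type (log2 difference -0.43, SE 0.126, edgeR adjusted p = 0.0622). Exons of Orc6 overlap those of Vps35 on the opposite strand, and those of Rfc4, Gins2, Chaf1a and Mcm7, among others, also overlap a gene on the other strand, so reads there cannot be assigned. Cdt1 had 23.6, 24.9, 30.9 and 27.8 CPM in the null and 45.9, 43.0 and 31.0 CPM in wild type (-0.59, SE 0.174, edgeR adjusted p = 0.0642), with wild-type library 4 just above null library 3. Cdc6, the loading ATPase, had -0.21 (SE 0.252), and Orc1, the largest origin subunit, had 0.33 (SE 0.294), the highest value among the 40 genes. Orc1 was also scarce, at 10.6 to 23.9 CPM in the null and 7.26 to 15.8 CPM in wild type.

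None of the primase and polymerase genes was called. Prim1, the catalytic primase subunit, had -0.41 (SE 0.137, edgeR adjusted p = 0.0979) and Prim2, its partner, -0.10 (SE 0.192). Pola1 and Pola2, subunits of the polymerase that extends the primer, had -0.36 and -0.35 (SE 0.149 and 0.189). The catalytic subunits of the lagging-strand and leading-strand polymerases, Pold1 and Pole, had -0.03 and -0.18 (SE 0.187 and 0.179). The groups did not overlap for Prim1 and Pola1.

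Tipin, a partner of Timeless that protects stalled forks, had 92.4, 104, 71.3 and 107 CPM in the null and 131, 125 and 124 CPM in wild type, a fitted -0.46 on the log2 scale (SE 0.144, edgeR adjusted p = 0.0797). All 4 null libraries were below the 3 wild-type libraries. Of the single-strand binding proteins, Rpa1 had 0.05 (SE 0.185) and Rpa2 -0.31 (SE 0.144). Chaf1a and Chaf1b, the large and middle subunits of the complex that loads histones behind the fork, had -0.58 (SE 0.196, edgeR adjusted p = 0.0964) and -0.24 (SE 0.169). Ung, the glycosylase that removes uracil from DNA, had -0.44 (SE 0.143) without overlap between groups. Uhrf1, which guides maintenance methylation, and Slbp, which binds histone mRNA, both had -0.39 (SE 0.153 and 0.156). Reads in genes of the histone clusters, which replication is known to accompany, summed to 91.1 to 144 CPM in the null and 111 to 151 CPM in wild type, with overlap. These genes have near-identical copies and their counts are uncertain.

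Within the null group the 40 genes had a common order of libraries. Null library 4 held the highest null value for 34 of 40 genes (85.0%, against 29.2% of all genes tested) and null library 3 the lowest for 28 of 40 (70.0%, against 35.5%). Both held at once for 27 of 40 (67.5%, against 18.4%). The median of the log2 ratio to the wild-type mean was -0.33, -0.27, -0.50 and -0.02 in null libraries 1 to 4, and 0.05, -0.05 and 0.01 in wild-type libraries 2 to 4. The median gene in null library 4 was thus near its wild-type mean. All 15 genes without overlap between groups, with Tk1, Tyms, Pcna, Rfc3 and Gins1 among them, lay below every wild-type library there by definition. Of 34 mitosis genes, null library 4 was likewise the highest for 24 and null library 3 the lowest for 22.

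The 40 genes differed in how far they followed this order. After the group means were subtracted, values of Mcm2 to Mcm7 across the 7 libraries correlated at a median r of 0.89 over 15 pairs (0.69 to 0.99). The mean of the 6 MCM genes correlated with Chaf1b at 0.98, Rpa1 at 0.97, Cdc6 at 0.96, Rrm1 at 0.94 and Rrm2 at 0.93. It correlated with Ung at -0.03, Dut at -0.39 and Chaf1a at -0.73. The called genes were spread over this range, with Tyms at 0.92, Tk1 at 0.67, Gins1 at 0.45, Rfc3 at 0.26 and Pcna at -0.06. These points share their libraries, their depth and their normalization, and the correlations only describe 7 libraries. Within each library, Pcna reads per 100 reads of Mcm2 to Mcm7 numbered 25.5, 23.2, 31.9 and 17.7 in the null and 39.0, 41.8 and 30.0 in wild type. Tyms gave 9.48, 9.54, 10.7 and 8.54 against 15.7, 17.0 and 13.7, and Tk1 gave 5.11, 3.95, 5.38 and 3.90 against 9.65, 8.80 and 7.36. For Tk1 and Tyms the ratio was lower in every null library than in every wild-type library. For Pcna, Rfc3 and Gins1, null library 3 lay above wild-type library 4. The ratios there were 8.43 against 7.92 for Rfc3 and 3.39 against 3.11 for Gins1.

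**Figure D3:**
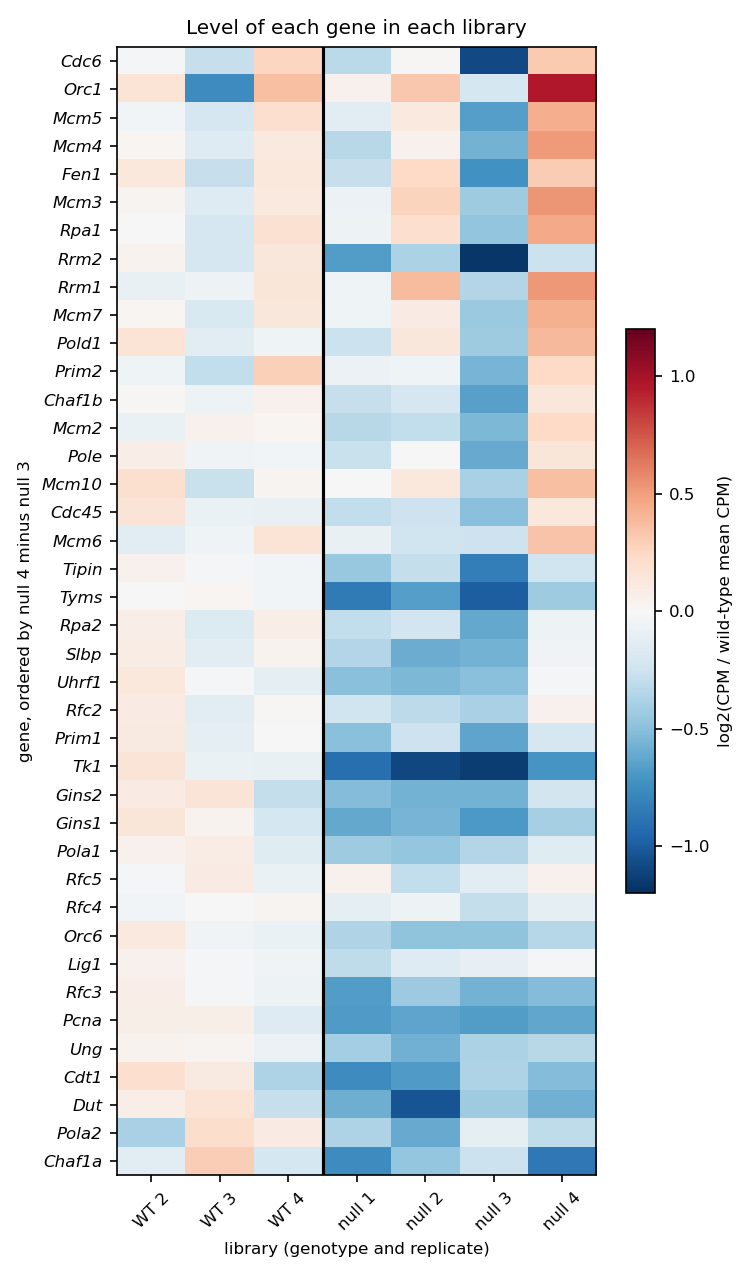
Log2 ratio of each gene's CPM to its wild-type mean (colour) in each library (x axis), with genes ordered on the y axis by null library 4 minus null library 3. The MCM genes, Rrm1 and Rpa1 turn from below wild type in null library 3 to above it in null library 4, while Pcna, Rfc3 and Tk1 are below wild type in all 4 null libraries.

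Levels per transcript length (RPKM, the CPM divided by transcript length in kilobases) spread widely among the 40 genes. In wild type the highest were Rrm2 at 238 ± 28.2, Pcna at 199 ± 17.4 and Rfc4 at 115 ± 2.48 RPKM (SD, n = 3), and the lowest were Pole at 2.53 ± 0.122 and Orc1 at 4.07 ± 1.47 RPKM. Rrm2 and Pcna did not separate beyond their spread. The 6 subunits that form the MCM ring lay close together, from 34.2 ± 1.60 RPKM for Mcm2 to 50.4 ± 5.54 RPKM for Mcm7. Per length the clamp loader was uneven, with Rfc2 at 20.4 ± 1.61, Rfc5 at 19.2 ± 1.2, Rfc3 at 56.6 ± 2.79 and Rfc4 at 115 ± 2.48 RPKM. This depends on the transcript taken for each gene. Rfc2 and Rfc4 had 102 and 141 CPM in wild type, with lengths of 4995 and 1228 nt. Rrm2 stood at 238 ± 28.2 against 48.1 ± 4.45 RPKM for its partner Rrm1 in wild type, and at 160 ± 41.3 against 53.8 ± 14.4 RPKM in the null (SD, n = 4).

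**Figure D4:**
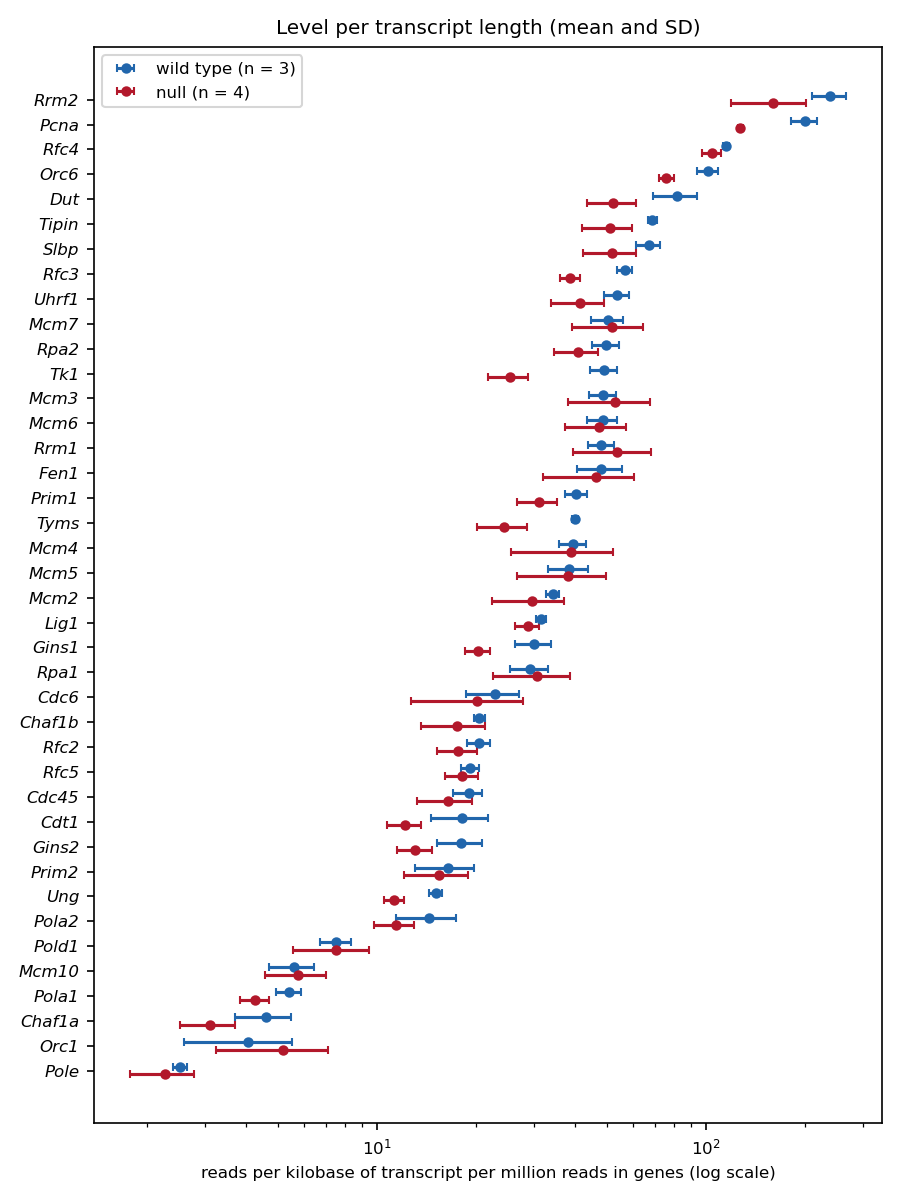
Level per transcript length of the 40 genes on a log scale (x axis, RPKM), mean and SD over 3 wild-type (blue) and 4 null (red) libraries. Rrm2, Pcna and Rfc4 are at the top, and Pole and Orc1 at the bottom.

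Of the 5 called genes, 4 had short transcripts and Tyms a longer one (3163 nt). Over all genes tested, those in the shortest quartile of transcript length (up to 1894 nt) had a median log2 fold change of -0.13 and were called lower in 4.61% of cases, against 0.06, 0.09 and 0.07 and 1.59%, 1.25% and 1.08% in the longer quartiles. The shortest quartile held 9 of the 40 genes, with a median of -0.46, and 4 of the 5 called ones (Gins1, Pcna, Rfc3 and Tk1). The 14 genes of the next quartile had a median of -0.24 and no call, and the 11 of the third had a median of -0.05 with Tyms called. The 6 in the longest quartile had a median of -0.20 and no call. Across the 40 genes the log2 fold change correlated with log2 transcript length at r = 0.43, against 0.14 over the 14120 genes with a length, and with GC content at -0.04. Transcript length thus moved with the result, and its part in it was not tested.

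Promoter sequence was compared because the genes have a common order across libraries. RefSeq promoters (build GRCm38.p6, 250 bases before to 50 after a start) were found for 33 of the 40 genes, and not for Mcm4, Gins1, Gins2, Prim2, Pole, Rfc2 and Tipin. An E2F element was searched on both strands as TTTCCCGC, TTTGGCGC, TTTCGCGC or TTTGCCGC, which may overlap each other. It was present for 12 of 33 genes (36.4%), against 4.57% of the tested genes with a promoter, 2.26% of all promoters of this length and 1 of 28 mitosis genes (3.57%). Other replication genes and the G1/S list held it about as often, at 12 of 31 (38.7%) and 7 of 19 (36.8%). A CCAAT box (CCAAT, both strands) was present for 20 of 33 (60.6%, against 43.0% of tested genes and 37.4% of all promoters), and a GC box (GGGCGG, both strands) for 25 of 33 (75.8%, against 67.7% and 35.7%). The CHR element of mitosis genes (TTTGAA, both strands) was present for 3 of 33 (9.09%, against 14.2% and 17.9%) and for 22 of 28 mitosis genes (78.6%).

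The members were then divided by the E2F element. The 12 with one (Orc1, Cdc6, Cdt1, Mcm3, Mcm5, Mcm6, Mcm7, Pola1, Pold1, Rfc3, Lig1 and Uhrf1) had a median log2 fold change of -0.11 with 1 call, and the 21 without had -0.35 with 3 calls. The difference between these sets was not tested. No E2F match lay in the windows of Tk1, Tyms and Pcna, which says only that these letters are absent there. Stretches before the RefSeq start are shown first for 3 called genes and then for 4 genes of licensing, the MCM ring and the primer polymerase that were not called. Those of Pcna and Rfc3 overlap annotated exons of the same genes in GENCODE M21, and the others overlap no annotated exon. Capitals mark a GC box in Tyms, a CCAAT box in Pcna and E2F elements in the others, and each is written 5′ to 3′ on the gene's own strand.
Tyms (chr5:30073626-30073725, minus strand): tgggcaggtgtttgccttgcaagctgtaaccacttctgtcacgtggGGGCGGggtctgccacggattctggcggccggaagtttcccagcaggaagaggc
Pcna (chr2:132253250-132253279, minus strand): accacgggtacgATTGGtccttgaggagag
Rfc3 (chr5:151651209-151651238, minus strand): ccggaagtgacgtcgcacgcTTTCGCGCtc
Mcm5 (chr8:75109329-75109388, plus strand): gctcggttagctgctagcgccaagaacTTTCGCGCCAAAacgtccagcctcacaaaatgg
Mcm6 (chr1:128359786-128359845, minus strand): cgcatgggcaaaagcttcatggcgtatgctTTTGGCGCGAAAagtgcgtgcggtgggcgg
Cdc6 (chr11:98907991-98908050, plus strand): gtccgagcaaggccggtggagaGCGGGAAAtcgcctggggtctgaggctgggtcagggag
Pola1 (chrX:93632256-93632315, minus strand): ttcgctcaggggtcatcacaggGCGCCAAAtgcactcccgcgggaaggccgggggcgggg

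In Mcm5 and in Mcm6 a pair of elements on opposite strands overlap to form 1 run of capitals.

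Other genes of the same pathways were counted from whole lists. Of 35 other replication genes, 1 was lower (Clspn; 2.86%, near the 2.13% of all genes) and 0 higher (against 4.11%), with a median of -0.23. At an unadjusted p under 0.05, 12 were lower (34.3%, against 10.9% of all genes) and 1 higher (2.86%, against 13.5%). Clspn encodes claspin, the fork mediator of the checkpoint, and had 19.2, 21.9, 21.4 and 20.5 CPM in the null and 31.5, 33.3 and 26.7 CPM in wild type (log2 difference -0.58, SE 0.145, edgeR adjusted p = 0.0380). Its call was lost without null library 1 (0.0960) or 2 (0.0812), wild-type library 2 (0.168) or 3 (0.189), and without null library 2 and wild-type library 4 together (0.0803).

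Of 32 other nucleotide synthesis genes, 4 were lower (12.5%, against 2.13% of all genes) and 2 higher (6.25%, against 4.11%), with a median of -0.05. Dtymk, the kinase that acts on the dTMP made by both TYMS and TK1, was lower (-0.55, SE 0.122, edgeR adjusted p = 0.0224), as was Dctpp1, a pyrophosphatase that clears modified dCTP (-0.59, SE 0.146, edgeR adjusted p = 0.0364). Dtymk had 94.1 to 105 CPM in the null and 149, 152 and 131 CPM in wild type, and the groups stood well apart. Thus Tk1, Tyms and Dtymk passed the test, and Dut, of the same dTMP route, lay below wild type in every library without passing it.

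The nucleoside diphosphate kinases Nme1 (-0.77, SE 0.146, edgeR adjusted p = 0.00964) and Nme2 (-0.71, SE 0.15, edgeR adjusted p = 0.0169) were also called lower. They are neighbouring near-identical genes whose reads can be split or lost, so their values are uncertain. The genes called higher were the mitochondrial folate enzymes Mthfd1l (0.86, SE 0.133, edgeR adjusted p = 0.00310) and Shmt2 (0.78, SE 0.128, edgeR adjusted p = 0.00443). Mthfd1l had 80.6, 83.2, 75.3 and 72.5 CPM in the null and 39.0, 45 and 43.1 CPM in wild type. Without wild-type library 2 or 3, all 4 lower calls of this list were lost and both higher calls were kept. Dctpp1 and Dtymk also lost theirs without null library 1 (0.0844 and 0.0701), and Dtymk without null library 2 and wild-type library 4 together (0.0583).

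Of 27 genes of E2F factors, pocket proteins and the G1/S cyclin machinery, 4 were lower (14.8%, against 2.13% of all genes) and 1 higher (3.7%, near the 4.11% of all genes), with a median of -0.33. Ccne1, the cyclin that starts S phase with CDK2, had 14.5, 18.5, 16.5 and 18.8 CPM in the null and 33.2, 32.7 and 24.0 CPM in wild type (-0.83, SE 0.165, edgeR adjusted p = 0.0126). Cdc25a, the phosphatase that activates CDK2, had -0.53 (SE 0.139, edgeR adjusted p = 0.0441), and the G1 cyclin Ccnd2 had -0.96 (SE 0.176, edgeR adjusted p = 0.00846). The inhibitor Cdkn1c, which restrains the same kinases, also fell (-1.14, SE 0.146, edgeR adjusted p = 0.000932), and the pocket protein gene Rb1 rose (0.98, SE 0.265, edgeR adjusted p = 0.0489). Of these only Cdkn1c kept its call with any 1 library left out. Without wild-type library 2 or 3 the others lost theirs (edgeR adjusted p = 0.0501 to 0.207). Ccne1 also lost its call without null library 1 (0.0509), and Cdc25a and Rb1 lost theirs in 6 of the 7 fits with 1 library left out. Cdc25a was also lost without a filter on low counts (0.0592), and Rb1 with upper-quartile scaling (0.0515).

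Of 34 tested mitosis genes, 0 were called in either direction by edgeR, near the 2.13% lower and 4.11% higher of all genes. Their median was -0.05. At an unadjusted p under 0.05, 6 were lower (17.6%, against 10.9% of all genes) and 0 higher (against 13.5%). DESeq2 called 3 lower, against 5.91% of all genes. The most abundant were Top2a, the topoisomerase that untangles sister chromatids, at 502 ± 66.8 against 450.0 ± 21.1 CPM (log2 fold change 0.14, SE 0.138), and the mitotic cyclin Ccnb1 at 403 ± 102 against 435 ± 68.0 CPM (-0.13, SE 0.196; SD, n = 4 and 3). The difference between the replication and mitosis genes was not tested.

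**Figure D5:**
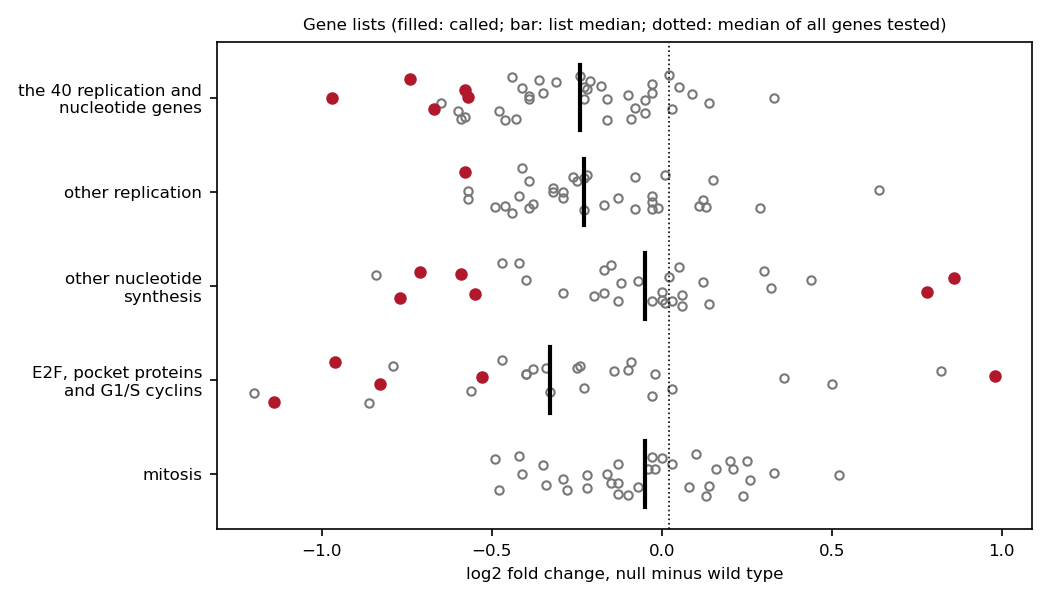
Log2 fold change, null minus wild type (x axis), of each tested gene in 5 lists (y axis; filled points are called, bars are list medians, the dotted line is the median of all genes tested at 0.02). The medians of the 40 genes, of other replication genes and of the G1/S list are -0.24, -0.23 and -0.33, and those of other nucleotide synthesis and of mitosis genes are both -0.05.

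Cell type markers moved with genotype too. Over all genes tested, 2.13% were called lower and 4.11% higher. Of 10 cushion mesenchyme markers, 7 were called lower in the null and 0 higher. Their summed levels were 334, 330, 381 and 452 CPM in null libraries 1 to 4 and 524 to 852 CPM in wild type. Of 10 endothelial markers, 4 were higher, with sums of 479 to 523 CPM against 319 to 374 CPM. Red blood cell markers summed to 5620 to 14500 CPM in the null and 9350 to 22100 CPM in wild type, with 1 of 8 tested lower and with Hba-a1 and Hba-a2 at 0 reads in every library. Cardiomyocyte markers summed to 33500 to 39000 CPM and 31700 to 35800 CPM, with 1 of 10 higher. Epicardial markers summed to 65.5 to 82.9 against 50.2 to 71.4 CPM and foregut endoderm markers to 2.22 to 17.1 against 3.29 to 9.32 CPM, with 0 called. White blood cell markers summed to 9.17 to 14.4 against 13 to 14.2 CPM, with 1 of 5 tested higher and 1 lower. The part of cell composition in the lower replication genes was not tested.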

How the data were processed

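The authors deposited whole-number read counts per gene symbol for each library. The tools named per the submitters' processing notes are TopHat2 2.0.13, SAMtools and HTSeq, and the build is mm9. Neither annotation nor counting mode is given in the sources used here. Per the labels' protocols, ribosomal RNA was depleted, cDNA went through 8 cycles of PCR and reads were 50 nt without strand. The 5 summary lines of each file were left out of totals and tests. They held 7.31% to 14.21% of reads as lying in no gene, and reads aligning to several places 9.08% to 13.81%. A count of 3 reads corresponds to 0.0669 to 0.108 CPM, for counting error only.

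CPM were computed over gene rows without scaling. Genotypes were compared by quasi-likelihood F test in edgeR 4.0.16 (R 4.3.3) with TMM, the default low-count filter (minimum count 10) and no covariate, on all 7 libraries with 5 residual degrees of freedom. SE was derived from the fold change and F. Alternatives were RLE and upper-quartile scaling, no filter, a stricter filter (1 CPM in 3 libraries), DESeq2 1.42.0, a replicate block and leaving out libraries. Transcript lengths are of the APPRIS principal transcript in GENCODE M21 (GRCm38), used only for lengths and overlaps, so RPKM are approximate. Where several transcripts of a gene ranked equally, the longest was taken. Of the symbols, 20882 matched as written and 1922 by an older name.

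All 40 genes are named. Library values are given for called genes, the 6 uncalled genes with the smallest p and some others chosen after their values were seen. From other lists, called genes are named, up to 4 per direction, or else the 2 most abundant. The members and lists were chosen with earlier results of these data known, so no list is independent evidence. Tested on counts simulated for this comparison over 14106 genes, the fit recovered 13.8% of 1.5-fold changes, 75.0% of 2-fold changes and all 64 of the 4-fold changes, with 5 of 122 calls false. Genes were drawn independently there and low-count genes were left unchanged, so these rates need not hold for genes that vary together.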

Additional observations from a re-analysis of the deposited data

Results flagged for a closer look

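In 56 genes looked at, 2 had a null library far from the other 3, where chance gives about 1 in 20 groups. Gins2 stood at 60.2 CPM in null library 4 against 47.2 to 48.8 CPM in the others, with a gap of 0.878 of the range. Uhrf1 stood at 189 CPM in null library 4 against 133 to 136 CPM, with a gap of 0.933 of the range.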

How the results depend on the processing

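The median of the 40 genes lay between -0.39 and -0.19 with any 1 library left out, and no alternative called any of them higher. Their lower calls numbered 1 to 8 with 1 library left out, 14 in DESeq2 and 2 without null library 2 and wild-type library 4, an alternative chosen after seeing the data. Over all genes, 0.318% to 4.58% were called lower and 1.45% to 6.65% higher with 1 library left out. DESeq2 called 5.91% lower and 7.39% higher, and upper-quartile scaling 2.62% lower and 3.79% higher. The stricter filter called 2.67% lower, and the fit without both libraries 0.849% lower and 2.06% higher. Other replication genes gave 0 to 5 lower calls with 1 library left out, 2 with upper-quartile scaling, 2 with the stricter filter, 5 in DESeq2 (with 1 higher) and 0 without both libraries. Other nucleotide genes gave 0 to 5 lower and 2 higher with 1 library left out, and 7 lower in DESeq2. The G1/S list gave 0 to 2 higher and 1 to 5 lower with 1 library left out, 0 higher with upper-quartile scaling, 2 in DESeq2 and 0 without both libraries. Mitosis genes gave 0 to 1 in either direction with 1 library left out and 3 lower in DESeq2. Where fewer libraries were used the test had fewer replicates, and otherwise the cause was not tested.

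Null and wild-type libraries with the same replicate number deviated with r = -0.0732, 0.257 and 0.166 for numbers 2 to 4, so the numbers were not taken as pairing the pools. With a replicate block, 7 of the 40 genes were lower (4 shared with the 5, against 3.95% of all genes), the calls of Gins1 (0.0527) and, in the G1/S list, Cdc25a (0.0609) were lost by edgeR adjusted p, 4 other replication genes and 1 mitosis gene were lower, and Mcm7 and Pold1 changed sign at -0.003 and 0.004.

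Over 56 genes, 678 of 784 values kept direction and side of the threshold, and no called gene reversed. The 12 that did had log2 fold changes of at most 0.137 in size. Mcm7 was -0.002 with upper-quartile scaling. Without both libraries Mcm4 was 0.005, Mcm5 0.054, Mcm6 0.107 and Prim2 0.07. With 1 library left out the ranges were -0.079 to 0.229 for Mcm3, -0.292 to 0.085 for Mcm4, -0.22 to 0.126 for Mcm5, -0.21 to 0.025 for Mcm6, -0.142 to 0.138 for Mcm7, -0.099 to 0.137 for Mcm10, -0.23 to 0.049 for Prim2, -0.194 to 0.078 for Pold1, -0.234 to 0.076 for Fen1, -0.115 to 0.178 for Rpa1, -0.013 to 0.264 for Rrm1 and -0.258 to 0.019 for Ccnb1.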
